A study of Mus musculus with 12 samples.

Results

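Microglial nuclei from injured mouse spinal cord were compared between 7 days and 3 days after injury, across all genes measured. The comparison used 6 of the 12 libraries of the study, 3 at each time, chosen by their labels alone. The mice were C57BL/6, per the labels, and both groups had a spinal cord injury. The labels name no mutant allele or drug in either group, and the kind of injury, the sex and the age of the mice and the transgene that marks the nuclei with GFP are not stated in the sources used. Each library pooled the cords of 3 animals, taken 5 mm to either side of the lesion, and nuclei bearing GFP were pulled down by antibody and magnetic beads. The remaining libraries, 3 from mice labelled sham at 7 days and 3 from injured mice at 14 days, are given below as reference levels.

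Microglia are the resident macrophages of the central nervous system. After an injury to the spinal cord they divide, move to the lesion, take up debris and lower the genes that mark their resting state, and blood monocytes enter the tissue and become macrophages beside them. Nuclear RNA holds much newly made and unspliced transcript, so its levels follow transcription more closely than whole-cell RNA does.

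The libraries held 4344015, 6610377 and 10670804 counts at 3 days and 5047851, 6026349 and 7232561 counts at 7 days. Libraries of 1 group differed by more than counting error, with 5.67 to 22.8 times the variance that counting gives, and none was a copy of another. Adjusted p-values below come from edgeR (quasi-likelihood F test), were adjusted by Benjamini-Hochberg across the tested genes, were held to a threshold of 0.05, and measure the spread between these pools. A level in CPM is a count divided by its library's total and put on a common scale, normalised between libraries by TMM for single genes and by library totals for sums over lists. The markers that define microglia were present, with a summed level over 14 markers of 4906, 4902 and 4054 CPM at 3 days and 6686, 6167 and 5792 CPM at 7 days. In bulk nuclei, fewer nuclei of a type and less RNA per nucleus cannot be told apart. The pools differed in sex. The summed level of 4 Y-linked genes was 0.460, 290 and 0.375 CPM at 3 days and 9.51, 703 and 568 CPM at 7 days. Xist, the RNA of the inactive X, had 13011, 5189 and 12078 CPM at 3 days and 22386, 4.81 and 0.968 CPM at 7 days. The 3-day pool with Y-linked RNA, replicate 2, thus also held Xist, while 7-day replicates 3 and 4 held almost none. The make-up by sex therefore differed between the times. No comparison within 1 sex had 3 libraries on each side, and a fit with the Y-linked sum as a covariate called 1673 genes. RNA of vascular cells moved with the groups: the sum over 14 endothelial markers was 341, 398 and 813 CPM at 3 days and 53.9, 65.9 and 84.1 CPM at 7 days, and that over 14 fibroblast and pericyte markers was 337, 386 and 976 CPM at 3 days and 37.6, 133 and 113 CPM at 7 days. None of either set was at 0 in all 6 libraries. Both sums were higher in each 3-day library than in any 7-day library. Some markers of glia also moved with the groups. Of 14 astrocyte markers, 4 fell, 13 had a log2 fold change below 0 and the median was -1.04, while their sum, of which Slc1a3, the astrocyte marker with the highest level, was a large part, overlapped (2565, 1611 and 2533 CPM at 3 days and 2050.2, 1850.0 and 1821 CPM at 7 days). The astrocyte falls numbered 0 without 3-day replicate 3, 2 without 3-day replicate 1 or 7-day replicate 1, and 7 or 8 with the 6 libraries alone, without sham replicate 4 or with the replicate block. Of 12 oligodendrocyte precursor markers, 4 fell (median -0.81), with a sum of 317, 229 and 301 CPM at 3 days and 126, 147 and 174 CPM at 7 days. Cspg4, Vcan and Ptprz1 made up much of this sum, and Cspg4 had 63.4 to 85.2 CPM at 3 days against 2.25 to 5.65 CPM in sham. Olig1 and Gpr17 overlapped between the times, and of the 12 markers 10 had a log2 fold change below 0 and 2 above. The precursor falls numbered 1 without 3-day replicate 1 or 3 or 7-day replicate 1 or 3 and 2 without 3-day replicate 2. The part of these cells in the results was not tested.

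Of 18451 genes tested, 2466 (13.4%) differed between the times, 1079 (5.85%) higher and 1387 (7.52%) lower at 7 days. The median log2 fold change, 7 days minus 3 days, was 0.01 over all tested genes, 1.08 over the genes called higher and -1.64 over those called lower. Among the called genes, 604 were over 2-fold higher and 1117 over 2-fold lower. In 3594 genes (19.5%) all 7-day libraries lay above all 3-day libraries, and in 3725 (20.2%) all lay below. Leaving out 3-day replicate 3 lowered the number of called genes to 564, leaving out 7-day replicate 1 to 954, leaving out 7-day replicate 3 to 1088, leaving out 3-day replicate 1 to 1500 and leaving out 3-day replicate 2 to 1465. Without 3-day replicate 2, 31.9% of called genes were higher at 7 days, against 43.8% with all libraries.

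**Figure D1:**
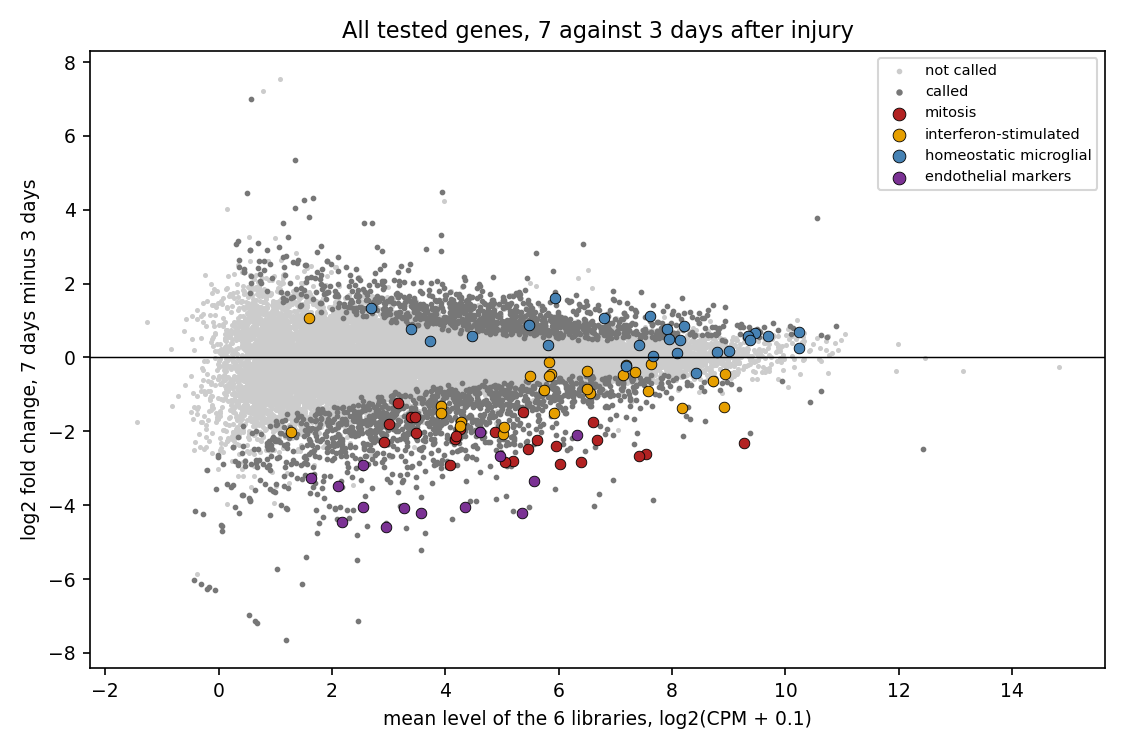
Each point is 1 of the 18451 tested genes, with its mean level over the 6 libraries as log2(CPM + 0.1) on the horizontal axis and its log2 fold change from 3 to 7 days on the vertical axis. Dark grey points passed the adjusted threshold. Mitosis genes (red) all lie below 0, with changes from -2.90 to -1.23, endothelial markers (purple) lie lowest, and most homeostatic microglial genes (blue) lie above 0.

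Genes of cell division were lower at 7 days in all members measured. The list of mitosis genes holds cyclins, spindle kinases, motors and kinetochore proteins, the machinery that separates the chromosomes. Of 24 members tested, 24 fell, with a median log2 fold change of -2.24 beside 0.01 over all genes. Their summed level was 3029.7, 3039 and 2668 CPM at 3 days and 604, 483 and 590.0 CPM at 7 days, and 295 to 585 CPM in the sham libraries and 447 to 483 CPM in the 14-day libraries. The 3-day libraries thus held a mean of 5.21 times the level of the 7-day libraries, and the 7-day libraries lay at the level of the sham and 14-day libraries or just above it. The count of called members stayed between 21 and 23 when 1 library of the 6 was left out, and was 22 with the Y-linked covariate. Endothelial markers, which also moved between the 2 times, were at 493 to 509 CPM in the 14-day libraries, where the mitosis sum was low. A level at 14 days cannot show which nuclei held mitosis RNA at 3 days, and the part of vascular cells was not tested.

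Promoters of this group share a short sequence, shown here for Anln and Top2a, the called mitosis genes with the smallest adjusted p whose promoters hold it. Cell cycle genes are known for the cell cycle genes homology region (CHR), bound by the DREAM and MuvB complexes, and the capitals mark its core, TTTGAA, on either strand. The sequences run from 250 bases before to 50 bases after the start site in RefSeq (build GRCm38.p6), in the direction of transcription. Anln lies at chr9:22389157-22389456 and Top2a at chr11:99024140-99024439, both on the minus strand.
Anln: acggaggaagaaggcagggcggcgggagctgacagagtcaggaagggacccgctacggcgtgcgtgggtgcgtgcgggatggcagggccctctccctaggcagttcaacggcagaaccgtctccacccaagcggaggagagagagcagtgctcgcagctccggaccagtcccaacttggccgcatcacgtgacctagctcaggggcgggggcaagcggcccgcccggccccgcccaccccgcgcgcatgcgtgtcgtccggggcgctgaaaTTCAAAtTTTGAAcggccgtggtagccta
Top2a: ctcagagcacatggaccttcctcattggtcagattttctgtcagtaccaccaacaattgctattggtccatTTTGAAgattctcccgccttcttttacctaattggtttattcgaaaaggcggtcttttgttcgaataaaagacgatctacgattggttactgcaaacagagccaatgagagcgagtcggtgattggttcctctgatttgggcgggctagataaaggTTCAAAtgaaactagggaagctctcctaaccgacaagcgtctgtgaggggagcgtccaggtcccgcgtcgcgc
In Anln the matches begin 21 and 28 bases after the start site, and in Top2a they begin 179 and 23 bases before it. Of the 24 mitosis genes, 20 had a promoter in the table, and 16 of these (80.0%) held TTTGAA, against 14.7% of tested genes with a promoter. CCAAT, the letters of the CCAAT box bound by NF-Y, was in 16 of the 20 (80.0%) and in 42.5% of tested genes. It was not particular to mitosis genes. Its share was 88.2% in the cholesterol synthesis list, 68.2% in replication, 66.7% in repair and 41.2% in the interferon list. Over all 32851 promoters of the table, whatever the gene, the shares were 17.9% for TTTGAA and 37.4% for CCAAT. A gene can have several promoters in the table, and a match describes letters, not binding.

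Cenpe, the kinetochore motor that draws chromosomes to the spindle equator, lies at chr3:135212537-135273611 (GRCm38). Cenpe measured 298, 324 and 336 CPM at 3 days and 54.0, 47.5 and 53.9 CPM at 7 days. The 3-day libraries were all above the 7-day libraries by a wide margin, and the log2 fold change was -2.62 ± 0.19 (SE; adjusted p = 8.28e-06). Top2a, the topoisomerase that untangles sister chromatids, lies at chr11:98992943-99024189. Top2a measured 297, 303 and 290.0 CPM at 3 days and 56.1, 33.6 and 49.6 CPM at 7 days. Top2a fell by 2.68 ± 0.27 on the log2 scale (adjusted p = 1.46e-04), and the 3-day values spread less than the 7-day values. Anln, the actin-binding protein of the cleavage furrow, lies at chr9:22332012-22389188. Anln measured 156, 157 and 138 CPM at 3 days and 47.6, 38.0 and 48.0 CPM at 7 days. Anln fell by 1.75 ± 0.17 (adjusted p = 1.28e-04), the smallest fall of the 6 mitosis genes with the lowest p, and its sham mean of 58.5 CPM was above its 7-day mean of 44.5 CPM. Kif11, the spindle motor, was 7.35-fold lower at 7 days, Bub1, a checkpoint kinase, 6.99-fold lower and Tpx2, a spindle assembly factor, 7.08-fold lower. These 6 genes passed the threshold in every alternative fit.

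DNA replication genes fell in part. Of 26 tested, 15 fell and 0 rose (median log2 fold change -1.18). Rrm2, the small subunit of ribonucleotide reductase, fell by 2.27 ± 0.37 (adjusted p = 0.00265), and Cdc6, which loads the helicase at origins, by 2.25 ± 0.41 (adjusted p = 0.00443). Pola1 measured 52.4, 55.4 and 53.4 CPM at 3 days and 19.9, 20.6 and 22.3 CPM at 7 days. Pola1 is the catalytic subunit of DNA polymerase alpha, and its values were tight in both groups, with a fall of 1.36 ± 0.24 (adjusted p = 0.00378). Prim1, the primase, fell by 1.76 ± 0.25, Pole, the leading-strand polymerase, by 2.12 ± 0.34, and Uhrf1, which guides maintenance DNA methylation, by 2.03 ± 0.33. Mcm7, a helicase subunit, had 33.3, 37.3 and 42.5 CPM at 3 days and 39.8, 38.2 and 33.0 CPM at 7 days, with overlapping groups (log2 fold change -0.03 ± 0.21). Tk1, thymidine kinase, also overlapped (-0.07 ± 0.21). Without 7-day replicate 3, 9 members were called. An E2F site spelled TTTGGCGC was in the promoters of 5 of 22 replication genes (22.7%) and TTTCGCGC in 6 of 22 (27.3%), against 1.02% and 0.657% of tested genes, on either strand.

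The list of homologous recombination and crosslink repair genes held 15 called members of 20, all lower (median -1.39). Brca1 measured 73.3, 77.1 and 63.3 CPM at 3 days and 16.5, 13.2 and 15.1 CPM at 7 days. Brca1, which directs strand invasion during repair, was higher in each 3-day library than in any 7-day library and fell by 2.25 ± 0.27 (adjusted p = 3.86e-04). Ticrr, which helps origins fire, had the largest fall of the list at 2.69 ± 0.34 (adjusted p = 5.76e-04). Brip1, a helicase partner of Brca1, fell by 2.21 ± 0.26, Fancd2, of the Fanconi pathway, by 2.11 ± 0.26, Polq, a polymerase of end joining, by 1.82 ± 0.26 and Atad5, which unloads the sliding clamp, by 1.19 ± 0.19. Fanca had a log2 fold change of -0.62 ± 0.26 and Palb2 of -0.21 ± 0.27, and neither passed.

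Regulators of the G1 phase did not move as one group. Of 22 tested, 6 were lower and 1 higher (31.8% called, beside 13.4% of all tested genes, median -0.41). The number lower was 3 without 3-day replicate 3 and also without 7-day replicate 3. E2f7 and E2f8, the repressive E2F factors that are made in S phase, fell by 2.38 ± 0.40 and 2.37 ± 0.26 (adjusted p = 0.00288 and 2.60e-04). Ccne1, the cyclin of S phase entry, fell by 2.11 ± 0.42. Cdk6 measured 198, 220.3 and 192 CPM at 3 days and 365, 282 and 301 CPM at 7 days. Cdk6, the partner kinase of D cyclins, rose by 0.64 ± 0.15 (adjusted p = 0.0145), and its 3-day values lay below all of its 7-day values. Ccnd2, a D cyclin, fell by 1.45 ± 0.34 and E2f2, an activating E2F factor, by 0.97 ± 0.28. Cdk6 (up to 0.0816), Ccnd2 (up to 0.104) and E2f2 (up to 0.127) had adjusted p-values above the threshold when 1 library was left out. Rb1 had 223, 242 and 235 CPM at 3 days and 235, 282 and 172 CPM at 7 days, which overlapped.

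Many interferon-stimulated genes were also lower at 7 days. Type I interferon acts through a transcription factor complex that holds STAT2 and binds a response element in the promoters of antiviral genes. Of 26 tested, 14 fell and 0 rose, with a median log2 fold change of -0.87. Their summed level was 3740.1, 3556 and 4950.2 CPM at 3 days and 2264, 2124 and 2694 CPM at 7 days, with 969 to 1112 CPM in sham and 1627 to 1716 CPM at 14 days. The 7-day libraries thus lay below the 3-day libraries and above the sham libraries. Leaving out 3-day replicate 3, which had the highest sum, left 7 members called, leaving out 7-day replicate 3 left 8, leaving out 7-day replicate 1 left 9, and the Y-linked covariate left 8. That 3-day library also had the highest endothelial sum, while at 14 days, with an endothelial sum of 493 to 509 CPM, the interferon sum was below that of each 7-day library. The part of vascular cells in the interferon sums was not tested.

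The response element is shown in the promoters of Rsad2 and Stat2, the called members with the smallest adjusted p that hold it. Capitals mark the core of the interferon-stimulated response element on either strand, which is GAAA, any 2 bases and GAAA. Rsad2 lies at chr12:26456403-26456702 on the minus strand, and Stat2 at chr10:128270248-128270547 on the plus strand, both in the direction of transcription.
Rsad2: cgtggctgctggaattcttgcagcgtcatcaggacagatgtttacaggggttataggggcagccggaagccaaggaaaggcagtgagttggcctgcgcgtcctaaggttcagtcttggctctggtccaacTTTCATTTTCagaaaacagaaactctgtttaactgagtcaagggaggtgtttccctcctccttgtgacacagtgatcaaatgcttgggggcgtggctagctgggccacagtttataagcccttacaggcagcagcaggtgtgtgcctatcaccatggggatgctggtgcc
Stat2: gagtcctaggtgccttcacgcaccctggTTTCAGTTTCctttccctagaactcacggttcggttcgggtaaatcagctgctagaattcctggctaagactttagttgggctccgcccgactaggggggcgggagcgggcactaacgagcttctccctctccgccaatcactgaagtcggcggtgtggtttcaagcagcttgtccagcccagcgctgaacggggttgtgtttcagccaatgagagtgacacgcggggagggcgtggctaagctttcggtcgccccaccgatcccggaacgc
The match begins 120 bases before the start site in Rsad2 and 222 bases before it in Stat2. Of 26 interferon genes, 17 had a promoter in the table, and 10 of these (58.8%) held the letters. Among tested genes with a promoter the share was 3.95%, and over all promoters of the table it was 3.44%.

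Ifit2, which binds viral RNA, had the smallest p of the list. Ifit2 measured 82.2, 78.1 and 109 CPM at 3 days and 39.4, 22.7 and 33.2 CPM at 7 days. The lowest 3-day value was above the highest 7-day value, and Ifit2 fell by 1.50 ± 0.25 (adjusted p = 0.00263). Rsad2, the antiviral enzyme viperin, had 41.0, 69.6 and 43.9 CPM at 3 days and 8.80, 18.5 and 14.6 CPM at 7 days and fell by 1.88 ± 0.31 (adjusted p = 0.00283). Stat2 measured 609, 554 and 918 CPM at 3 days and 260.4, 206 and 347 CPM at 7 days. Stat2, the transcription factor, fell by 1.35 ± 0.23 (adjusted p = 0.00303), with 3-day replicate 3 well above the other libraries. Oas2 and Oasl1, of the family that senses double-stranded RNA, fell by 1.38 ± 0.24 and 1.86 ± 0.32, and Ifit1 fell by 2.08 ± 0.40. Among members that did not pass, Parp14 had 549, 446 and 703 CPM at 3 days and 414, 358 and 468 CPM at 7 days and Ifi204 212, 183 and 235 CPM at 3 days and 152, 259 and 151 CPM at 7 days, and both overlapped. Of 13 guanylate-binding proteins and immunity-related GTPases, the genes of the interferon gamma response, 0 passed edgeR's test (median -0.60), with 4 lower and 1 higher at an unadjusted p under 0.05, and 0 passed with the Y-linked covariate. Other fits called falls in this list and no rises: 2 by DESeq2, and with edgeR 4 with the replicate block, 3 with the 6 libraries alone, 3 without sham replicate 4 and 1 without 7-day replicate 4.

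Of 14 class II and costimulation genes, 3 fell and 2 rose (35.7% called, beside 13.4% of all tested genes, median -0.16). Cd74 measured 136, 113 and 121 CPM at 3 days and 21.4, 24.8 and 34.9 CPM at 7 days. Cd74, the invariant chain that escorts class II molecules, fell by 2.18 ± 0.31 (adjusted p = 0.00124), and its 14-day mean was 102 CPM. H2-Aa and H2-Eb1, class II chains, fell by 1.19 ± 0.25 and 1.22 ± 0.38. Cd86 measured 127, 101 and 88.4 CPM at 3 days and 179, 201 and 156 CPM at 7 days. Cd86, a costimulatory ligand, rose by 0.76 ± 0.17 (adjusted p = 0.0122), and H2-Ob, a chain of the class II modulator, rose by 0.94 ± 0.24. Neither rise passed without 3-day replicate 2 or 3, 1 passed without 7-day replicate 1 or 3, and H2-Eb1 had an adjusted p of up to 0.162 with 1 library left out. Of 14 class I and peptide-loading genes, 1 rose and 1 fell (14.3% called, near the 13.4% of all tested genes, median 0.38): Psmb9, of the immunoproteasome, rose by 1.37 ± 0.35 (adjusted p = 0.0209, up to 0.114 with 1 library left out), and Calr, the chaperone calreticulin, fell by 1.25 ± 0.26. H2-K1, a class I heavy chain, was higher in all 7-day libraries and did not pass (0.92 ± 0.36, adjusted p = 0.0949).

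Some markers of resting microglia rose from 3 to 7 days. Homeostatic genes are those that microglia of the healthy cord make and lower after injury. Of 26 tested, 10 rose, 0 fell and 16 did not pass (38.5% called, beside 13.4% of all tested genes). The median log2 fold change was 0.54. Their summed level was 7899, 7917 and 6716 CPM at 3 days and 10807, 10272 and 9001 CPM at 7 days, beside 11321 to 12917 CPM in sham. The 7-day libraries thus lay above the 3-day libraries and below the sham libraries. The number of rises rested on single libraries: it was 5 without 3-day replicate 1, 2 without 3-day replicate 2, and 0 without 3-day replicate 3, 7-day replicate 1 or 7-day replicate 3. It was 5 with the Y-linked covariate and 2 by limma on log2(RPKM + 1). The sum over monocyte-derived macrophage markers moved in the opposite direction (below), and its part in the rises was not tested.

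P2ry12 and P2ry13, the purinergic receptors by which microglia sense nucleotides, rose by 1.11 ± 0.33 and 1.07 ± 0.31. P2ry12 had 145, 131 and 97.2 CPM at 3 days and 335, 338 and 131 CPM at 7 days, and its lowest 7-day library, replicate 4, lay below 3-day replicate 1, so the groups overlapped. P2ry13 measured 90.9, 68.3 and 57.5 CPM at 3 days and 194, 161 and 100.4 CPM at 7 days. The lowest 7-day value, in replicate 4, was close to the highest 3-day value (adjusted p = 0.0333), and the sham mean was 303 CPM. Gpr34 measured 36.2, 29.0 and 26.3 CPM at 3 days and 93.6, 143 and 39.9 CPM at 7 days. Gpr34, the lysophosphatidylserine receptor, rose by 1.60 ± 0.39 (adjusted p = 0.0171), with its lowest 7-day library, replicate 4, not far above the 3-day libraries. Cx3cr1, the fractalkine receptor, rose by 0.77 ± 0.22, Siglech, a sialic acid lectin, by 0.65 ± 0.19, and Slco2b1, an organic anion transporter, by 0.47 ± 0.13. Csf1r, the receptor that microglia need to survive, had 1108, 1159 and 1032 CPM at 3 days and 1355, 1198 and 1423 CPM at 7 days, with no overlap and a log2 fold change of 0.27 ± 0.17 that did not pass. Sall1, the microglial identity factor, overlapped (0.17 ± 0.16), as did Tmem119 (-0.22 ± 0.23). With 1 library left out, the adjusted p of P2ry12, P2ry13, Gpr34, Cx3cr1, Siglech and Slco2b1 reached 0.173, 0.157, 0.0947, 0.166, 0.15 and 0.132.

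Macrophage transcription factors had 5 rises and 1 fall among 24 tested (25% called, beside 13.4% of all tested genes, median 0.25). Bhlhe41 measured 231, 267 and 232 CPM at 3 days and 436, 643 and 463 CPM at 7 days. Bhlhe41, a repressor made in resident macrophages, rose by 1.08 ± 0.17 (adjusted p = 0.00241), with all 7-day libraries above all 3-day libraries and a sham mean of 288 CPM. Its paralog Bhlhe40 moved the other way, with 79.7, 98.5 and 89.0 CPM at 3 days and 41.7, 43.1 and 65.0 CPM at 7 days and a fall of 0.83 ± 0.20 (adjusted p = 0.0153). Maf measured 228, 221 and 183 CPM at 3 days and 389.9, 447 and 309 CPM at 7 days. Maf, a regulator of the resident programme, rose by 0.86 ± 0.21 (adjusted p = 0.0175). Mef2a and Mef2c, MADS-box factors, rose by 0.84 ± 0.26 and 0.59 ± 0.17, and Relb, of the NF-kappaB family, by 1.17 ± 0.35. Runx1 had a log2 fold change of 0.48 ± 0.20 and did not pass. Of the rises, that of Bhlhe41 passed in each fit with 1 library left out, while the count of rises was 1 without 3-day replicate 3 or 7-day replicate 1, 2 without 3-day replicate 2 and 3 without 3-day replicate 1 or 7-day replicate 3.

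TGF-beta signalling maintains the resting state of microglia. Of 18 receptors and SMAD genes, 3 rose and 0 fell (16.7% called, near the 13.4% of all tested genes, median 0.03). Tgfbr1 measured 905, 986 and 858 CPM at 3 days and 1559, 1839.8 and 1063 CPM at 7 days. Tgfbr1, the signalling receptor, rose by 0.70 ± 0.21 (adjusted p = 0.0376), Tgfbr2, the ligand-binding receptor, by 0.65 ± 0.18 and Skil, a repressor of SMAD targets, by 0.62 ± 0.19. The rises numbered 0 in each fit without a 3-day library, without 7-day replicate 1 or without 7-day replicate 3. At an unadjusted p under 0.05, 6 members were lower and 3 higher, and falls were called by DESeq2 (3), with the replicate block (3), without sham replicate 4 (3), with the 6 libraries alone (2), with the Y-linked covariate (1) and without 7-day replicate 4 (1). Of 20 Toll-like receptors and their adaptors, 1 rose (5% called, below the 13.4% of all tested genes). It was Tlr5, the flagellin receptor, which rose by 1.15 ± 0.35 (adjusted p = 0.044, up to 0.21 with 1 library left out). Tlr7 overlapped, with 318, 353 and 375 CPM at 3 days and 307, 523 and 243 CPM at 7 days.

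**Figure D2:**
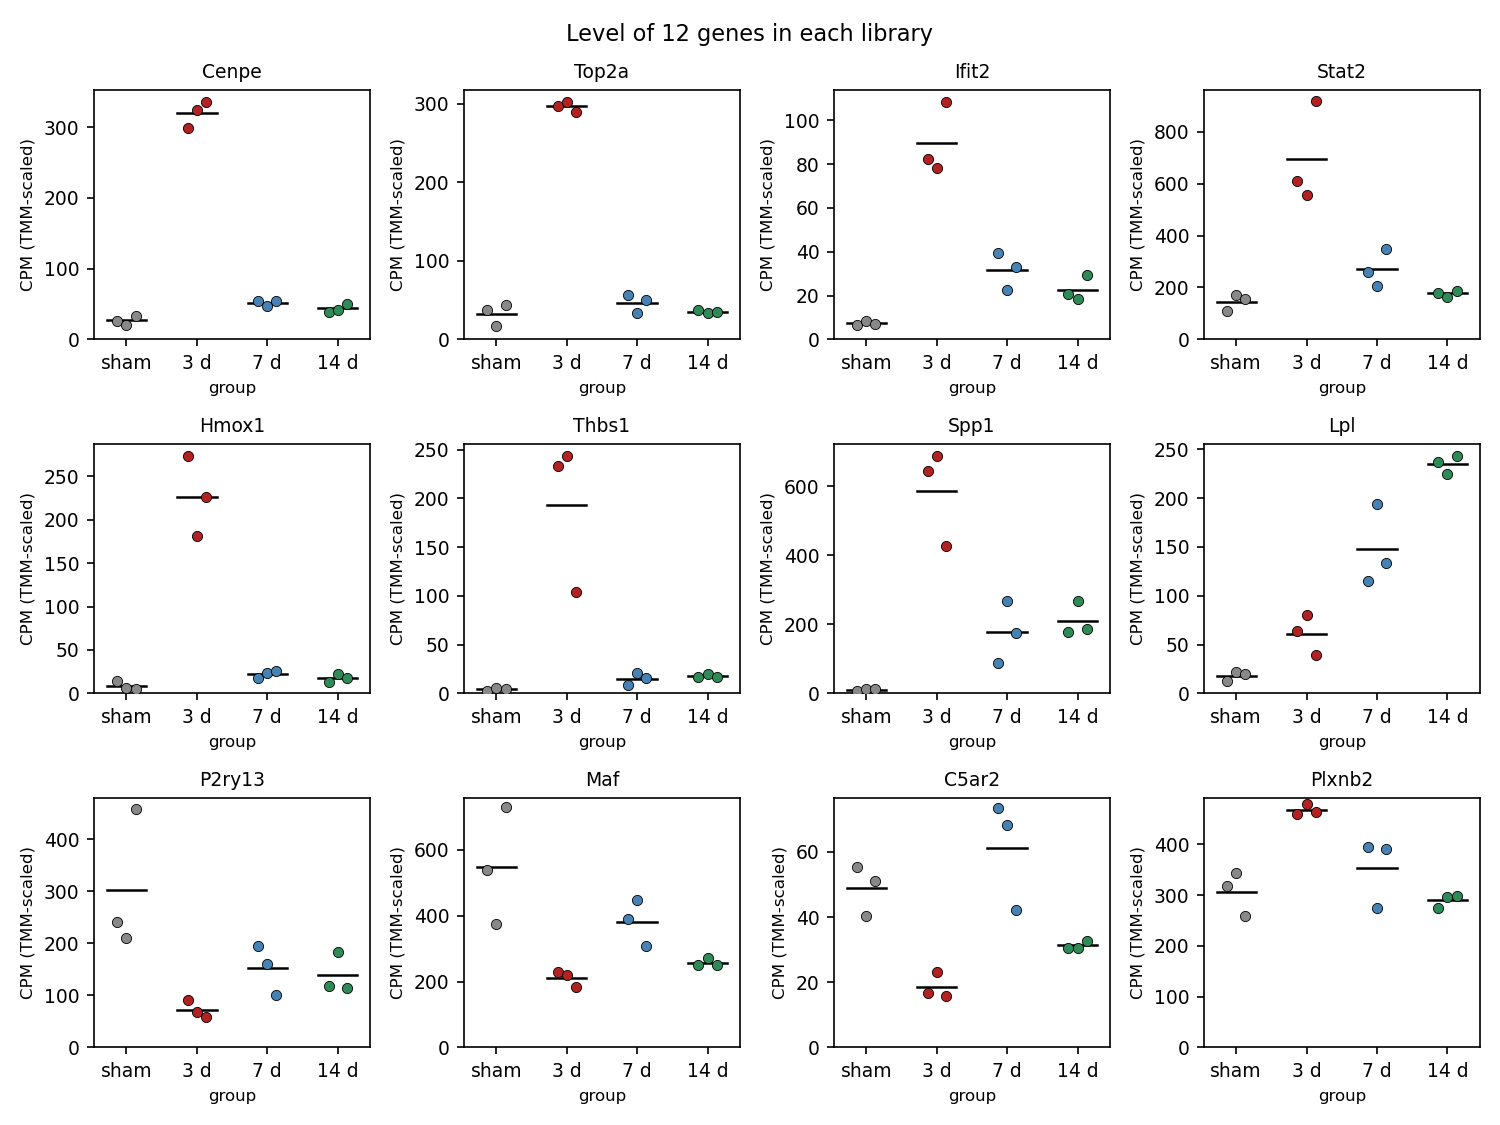
Level of 12 genes in each of the 12 libraries, in TMM-scaled CPM on a linear axis from 0, with the group mean as a line. Cenpe, Top2a, Hmox1 and Thbs1 are high at 3 days and near the sham level at 7 and 14 days, while P2ry13 and Maf are low at 3 days, and Lpl is higher at 7 than at 3 days and highest at 14 days.

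The damage-associated state is the programme of lipid handling and phagocytosis that microglia enter around lesions, with Trem2 and Apoe at its core. Of 26 tested, 5 rose and 4 fell (34.6% called, beside 13.4% of all tested genes, median 0.47). Lpl measured 64.0, 79.8 and 39.8 CPM at 3 days and 115, 194 and 134 CPM at 7 days. Lpl, lipoprotein lipase, rose by 1.27 ± 0.26 (adjusted p = 0.00753) with no overlap, and its 14-day mean was 235 CPM against 18.2 CPM in sham. Cst7, a cathepsin inhibitor, rose by 1.47 ± 0.34, Tyrobp, the signalling adaptor of Trem2, by 1.53 ± 0.43, Itgax, the CD11c integrin, by 0.76 ± 0.23 and Ctsz, a cathepsin, by 1.22 ± 0.29. Spp1 measured 643, 686 and 426 CPM at 3 days and 88.0, 267 and 175 CPM at 7 days. Spp1, osteopontin, fell by 1.73 ± 0.35 (adjusted p = 0.00721), and its lowest 7-day library was replicate 1. Lyz2, lysozyme, fell by 1.02 ± 0.24 and Ch25h, which makes 25-hydroxycholesterol, by 1.22 ± 0.29. Gpnmb measured 257, 367 and 337 CPM at 3 days and 229, 617 and 536 CPM at 7 days. Gpnmb, a lysosomal glycoprotein, overlapped between the times (log2 fold change 0.52 ± 0.28, adjusted p = 0.221), while its sham mean was 1.87 CPM.

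The calls for Lpl and Spp1 held in each alternative fit, while Tyrobp reached an adjusted p of 0.127 with 1 library left out. With 1 library left out, the rises in this list numbered 2 without 3-day replicate 2 or 3 and 3 without 3-day replicate 1 or 7-day replicate 3, and the falls 1 without 7-day replicate 1 and 2 without 3-day replicate 3 or 7-day replicate 3. The rises numbered 9 with the 6 libraries fitted alone and 11 without sham replicate 4. Axl, a receptor for apoptotic cells, was also not called, with 354, 389 and 589.8 CPM at 3 days and 289, 326 and 450.3 CPM at 7 days. Spp1, Lyz2 and Ch25h are also made by infiltrating macrophages, whose summed markers moved in the same direction. Lyz2 is itself in that marker list. Of 14 monocyte-derived macrophage markers, 6 fell and 0 rose, and 11 had a log2 fold change below 0 and 3 above. Their sum was 2209, 2254 and 1707 CPM at 3 days and 491, 817 and 952 CPM at 7 days, with 1161 to 1266 CPM at 14 days and 287 to 561 CPM in sham. Fn1, fibronectin, was a large part of this sum, with 1192, 1257 and 756 CPM at 3 days and 111, 266 and 396 CPM at 7 days. Ms4a7 moved the other way, with 25.8, 43.1 and 42.9 CPM at 3 days and 56.7, 71.5 and 94.2 CPM at 7 days. The falls numbered 3 without 7-day replicate 1 and 4 without 3-day replicate 1 or 3. Of 10 border-associated macrophage markers, 1 fell (10% called, below the 13.4% of all tested genes), and 0 without 3-day replicate 2 or 3 or 7-day replicate 1 or 3. The part of such cells in the falls was not tested.

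Lipid uptake and efflux genes gave 2 rises and 4 falls among 23 tested (26.1% called, beside 13.4% of all tested genes, median -0.08). Msr1 measured 235, 264 and 156 CPM at 3 days and 65.1, 113 and 85.9 CPM at 7 days. Msr1, the class A scavenger receptor, fell by 1.31 ± 0.26 (adjusted p = 0.00702), and its groups did not overlap. Cd36, a fatty acid and lipoprotein receptor, fell by 1.62 ± 0.45, Pltp, a phospholipid transfer protein, by 2.72 ± 0.64 and Vldlr, a lipoprotein receptor, by 1.24 ± 0.33. Mylip, a sterol-induced ligase that degrades the LDL receptor, rose by 0.70 ± 0.16, and Abca9, a transporter, by 0.56 ± 0.18. Abca1, the cholesterol exporter, had 882, 957 and 791 CPM at 3 days and 838, 1017 and 1293 CPM at 7 days and overlapped. With 1 library left out, the falls numbered 1 to 3 (1 without 3-day replicate 3, 7-day replicate 1 or 7-day replicate 3, and 2 without 3-day replicate 1), the rises 0 without 3-day replicate 3 and 1 without 3-day replicate 1 or 2 or 7-day replicate 1 or 3, and Msr1 alone of these genes passed in each such fit.

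Of 25 cholesterol synthesis genes, 3 fell and 0 rose (12% called, near the 13.4% of all tested genes, median -0.47). Insig1 measured 29.4, 29.6 and 35.5 CPM at 3 days and 17.6, 24.5 and 18.5 CPM at 7 days. Insig1, which holds the sterol sensor in the endoplasmic reticulum, fell by 0.64 ± 0.20 (adjusted p = 0.0472, up to 0.21 with 1 library left out), and Hsd17b7, an enzyme of the pathway, by 1.28 ± 0.41. Without 3-day replicate 3 the count was 0, and without 3-day replicate 1 or 7-day replicate 1 it was 1, while DESeq2 called 7. Of 26 lysosome and phagocytosis genes, 2 rose and 0 fell (7.69% called, below the 13.4% of all tested genes, median 0.16). Itgam measured 501, 549 and 464 CPM at 3 days and 940.4, 801 and 705 CPM at 7 days. Itgam, the CD11b integrin, rose by 0.69 ± 0.17 (adjusted p = 0.0189), and Mitf, a regulator of lysosome genes, by 0.69 ± 0.19, and neither passed without 3-day replicate 3, while 1 of the 2 passed without 3-day replicate 1 or 2 or 7-day replicate 3. Mertk, which binds apoptotic cells, was above in all 7-day libraries, with a log2 fold change of 0.65 ± 0.30 that did not pass.

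**Figure D3:**
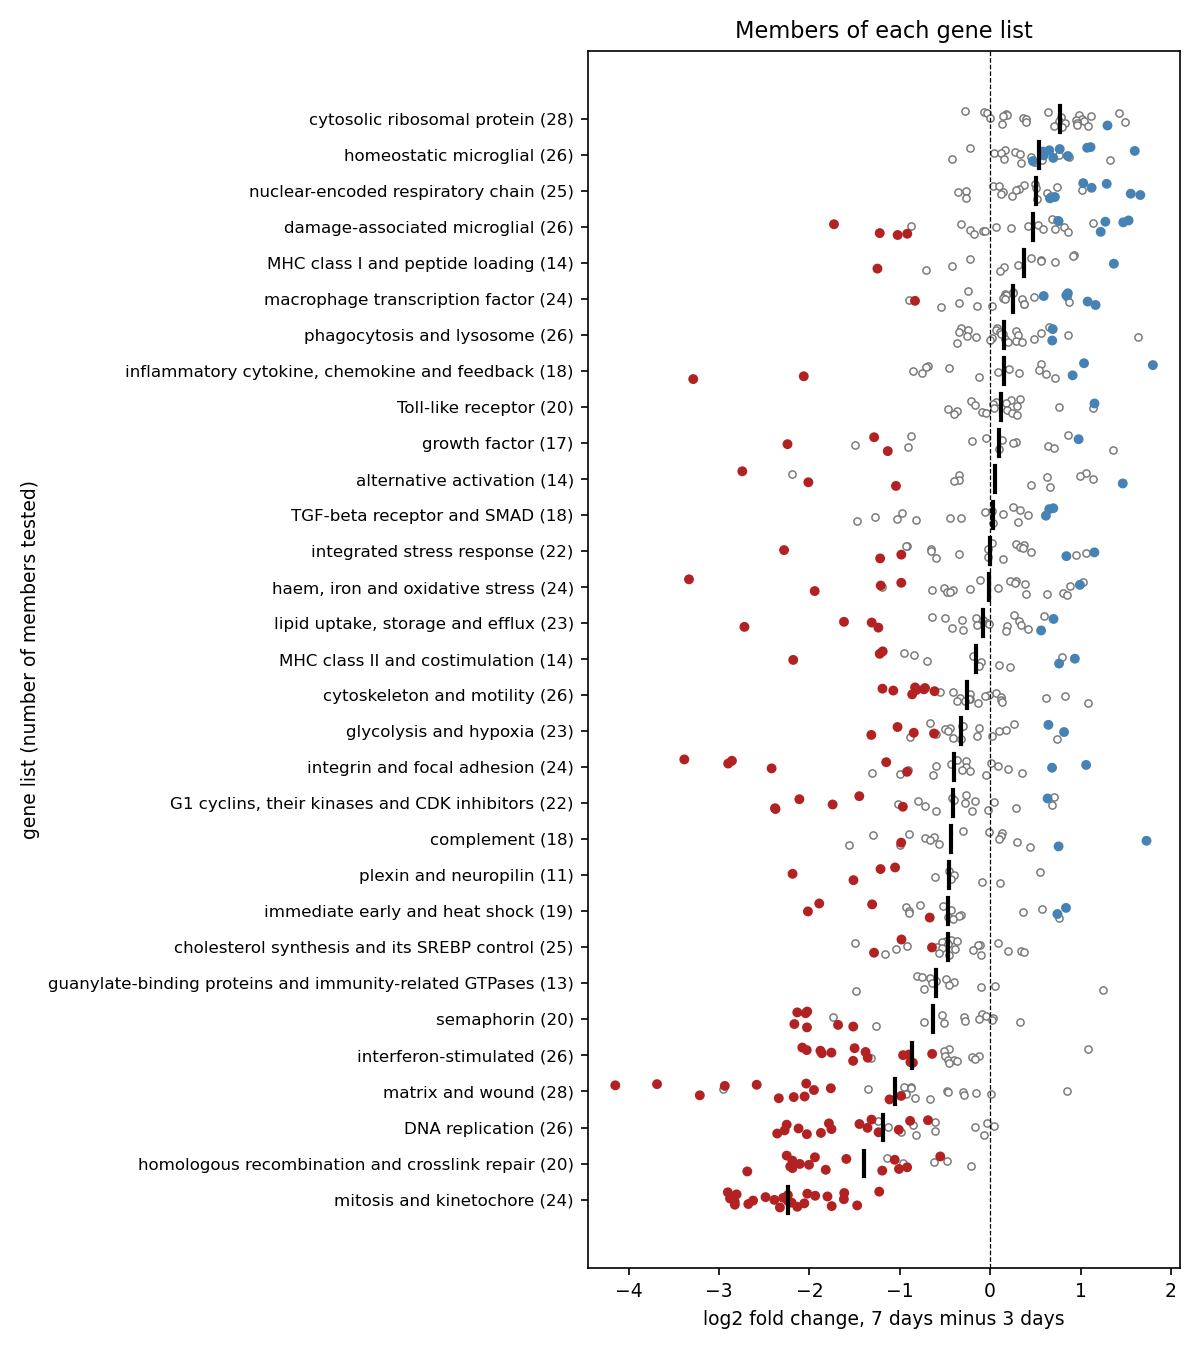
Each circle is a tested member of 1 of the 31 gene lists, at its log2 fold change from 3 to 7 days; filled red circles were called lower, filled blue circles called higher and open circles not called, and the black bar is the median of the list. The lists are ordered by median, from 0.77 for ribosomal proteins to -2.24 for mitosis.

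Of 18 cytokines, chemokines and feedback genes, 3 rose and 2 fell (27.8% called, beside 13.4% of all tested genes, median 0.15). Ptgs2 measured 10.2, 17.6 and 14.4 CPM at 3 days and 0.419, 1.41 and 2.27 CPM at 7 days. Ptgs2, the inducible cyclooxygenase, fell by 3.28 ± 0.58 (adjusted p = 0.00387) from a low level, and Il1rn, the interleukin-1 receptor antagonist, fell by 2.06 ± 0.43 (adjusted p = 0.00904). Il1a measured 53.3, 69.2 and 48.4 CPM at 3 days and 141, 115 and 95.5 CPM at 7 days. Il1a, interleukin-1 alpha, rose by 1.04 ± 0.24 (adjusted p = 0.0141), Il18 by 0.91 ± 0.22 and Il6 by 1.80 ± 0.46, the last with 1.14, 0.607 and 0.576 CPM at 3 days and 3.14, 2.99 and 1.74 CPM at 7 days and a sham mean of 12.6 CPM. No rise passed without 3-day replicate 3 and 1 passed without 3-day replicate 2, 7-day replicate 1 or 7-day replicate 3, whereas both falls passed in each fit with 1 library left out. Tnfaip3, a feedback inhibitor, had a log2 fold change of 0.72 ± 0.23 (adjusted p = 0.053) and Cxcl16, a chemokine, of 0.62 ± 0.23.

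Of 14 genes of alternative activation, 3 fell and 1 rose (28.6% called, beside 13.4% of all tested genes, median 0.06). Arg1 measured 49.9, 54.0 and 17.4 CPM at 3 days and 5.66, 6.87 and 5.48 CPM at 7 days. Arg1, arginase, fell by 2.74 ± 0.40 (adjusted p = 0.00129), and 3-day replicate 3 had the lowest level of the 3-day libraries. Tgm2 measured 34.8, 50.2 and 34.4 CPM at 3 days and 10.1, 8.81 and 10.7 CPM at 7 days. Tgm2, transglutaminase, fell by 2.01 ± 0.24 (adjusted p = 3.86e-04), and Tgfbi, a matrix protein, by 1.04 ± 0.22. Arg1 and Tgfbi are also in the list of monocyte-derived macrophage markers, whose sum was lower at 7 days. Egr2, a factor induced by interleukin-4, rose by 1.47 ± 0.34 (adjusted p = 0.0141, up to 0.0746 with 1 library left out).

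Of 18 complement genes, 2 rose and 1 fell (16.7% called, near the 13.4% of all tested genes, median -0.43). C5ar2 measured 16.6, 23.1 and 15.7 CPM at 3 days and 73.5, 68.2 and 42.3 CPM at 7 days. C5ar2, the second receptor for C5a, lies at chr7:16234585-16244154 and rose by 1.73 ± 0.24 (adjusted p = 0.00117) with a wide gap between the groups, and passed in each alternative fit. Itgax, a chain of complement receptor 4, was the other rise, and Cfp, properdin, fell by 0.98 ± 0.25 (adjusted p = 0.021, up to 0.108 with 1 library left out). C1qb measured 279, 328 and 293 CPM at 3 days and 298, 312 and 280.0 CPM at 7 days. C1qb, of the first component, overlapped, with a log2 fold change of -0.02 ± 0.20. The rises numbered 1 in each fit with 1 of the 6 libraries left out.

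Haem and iron genes were led by haem oxygenase. Hmox1 measured 273, 181 and 226 CPM at 3 days and 17.6, 23.4 and 26.2 CPM at 7 days. Hmox1, haem oxygenase 1, which breaks down the haem of red blood cells, lies at chr8:75093621-75100589 and fell by 3.33 ± 0.32 (adjusted p = 1.28e-04), or 10.1-fold, and passed in each alternative fit. Its 3-day libraries were all far above the 7-day libraries, and its sham mean was 8.22 CPM. Slc11a2 measured 66.5, 61.0 and 64.8 CPM at 3 days and 116, 101 and 165 CPM at 7 days. Slc11a2, the iron transporter DMT1, moved the other way and rose by 0.99 ± 0.21 (adjusted p = 0.00807). Of 24 genes of this list, 4 fell and 1 rose (20.8% called, beside 13.4% of all tested genes, median -0.01). The other falls were Ftl1, a ferritin chain (-0.98 ± 0.30), Tfrc, the transferrin receptor (-1.21 ± 0.28) and Slc7a11, the cystine transporter (-1.94 ± 0.55). With 1 library left out the falls numbered 1 (without 3-day replicate 3 or 7-day replicate 1), 2 (without 3-day replicate 1 or 2 or 7-day replicate 3) or 3, and Ftl1, Tfrc and Slc7a11 reached an adjusted p of 0.166, 0.106 and 0.13.

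Stress and immediate early genes were called in both directions. Of 22 integrated stress response genes, 3 fell and 2 rose (22.7% called, beside 13.4% of all tested genes, median 0.00). Slc7a5 measured 40.1, 36.7 and 91.2 CPM at 3 days and 11.9, 10.7 and 12 CPM at 7 days. Slc7a5, a large neutral amino acid transporter that endothelial cells also make, fell by 2.28 ± 0.38 (adjusted p = 0.00289), and its highest library, 3-day replicate 3, was also the one with the highest endothelial sum. Hspa5, the endoplasmic reticulum chaperone, fell by 1.22 ± 0.31, and Cebpg, a partner of ATF4, rose by 0.84 ± 0.22. Of 19 immediate early and heat shock genes, 4 fell and 2 rose (31.6% called, median -0.47). Fosl2 measured 64.2, 89.5 and 76.5 CPM at 3 days and 24.1, 34.0 and 34.9 CPM at 7 days. Fosl2, an AP-1 subunit, fell by 1.31 ± 0.21 (adjusted p = 0.00225), Dusp1, a kinase phosphatase, by 2.02 ± 0.36 and Fos by 1.89 ± 0.57, and Egr1 rose by 0.84 ± 0.22. With 1 library left out, Hspa5 reached an adjusted p of 0.0935, Cebpg 0.123, Fos 0.16 and Egr1 0.0979. The falls of the stress response numbered 1 without 3-day replicate 1 or 3 or 7-day replicate 1 and 5 without 7-day replicate 4, and the rises 0 without any one 3-day library and 1 without any one 7-day library. The falls of the immediate early list numbered 2 without 3-day replicate 3, 7-day replicate 1 or 7-day replicate 3, and the rises 0 without 3-day replicate 1 or 3 or 7-day replicate 3 and 1 without each of the other libraries.

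Of 17 growth factors, 3 fell and 1 rose (23.5% called, beside 13.4% of all tested genes, median 0.10). Vegfa measured 37.6, 44.6 and 49.8 CPM at 3 days and 17.0, 19.4 and 17.9 CPM at 7 days. Vegfa, which drives vessel growth, fell by 1.28 ± 0.21 (adjusted p = 0.00243), with tight values in both groups and passed in each alternative fit. Pdgfa measured 36.4, 43.4 and 43.3 CPM at 3 days and 85.5, 79.8 and 78.0 CPM at 7 days. Pdgfa, a mitogen for oligodendrocyte precursors, rose by 0.98 ± 0.23 (adjusted p = 0.0148, 0.0595 without 3-day replicate 3). Tgfb2 fell by 2.24 ± 0.64 and Nrg1 by 1.13 ± 0.34, with adjusted p-values of up to 0.257 and 0.143 with 1 library left out. Igf1, which microglia make around lesions, was higher in each 7-day library than in any 3-day library and did not pass (99.5, 119 and 93.6 CPM at 3 days and 146, 233 and 188 CPM at 7 days; log2 fold change 0.86 ± 0.37, adjusted p = 0.13). The falls numbered 1 without 3-day replicate 3, 7-day replicate 1 or 7-day replicate 3. Csf1, the ligand of the microglial survival receptor, was lower in all 7-day libraries and had an adjusted p of 0.0503.

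Of 28 matrix and wound genes, 13 fell and 0 rose (median -1.05), and 8 fell without 7-day replicate 1. Thbs1 measured 234, 243 and 104 CPM at 3 days and 9.01, 20.4 and 15.4 CPM at 7 days. Thbs1, thrombospondin 1, a secreted glycoprotein of wounds that activates TGF-beta, lies at chr2:118111876-118127133 and fell by 3.69 ± 0.35 (adjusted p = 1.28e-04), or 12.9-fold. Adam8 measured 254, 308 and 247 CPM at 3 days and 40.2, 66.2 and 87.9 CPM at 7 days. Adam8, a membrane protease of leukocytes, fell by 2.05 ± 0.33 (adjusted p = 0.00251). Col4a1 measured 67.9, 57.5 and 81.9 CPM at 3 days and 0.419, 5.46 and 5.35 CPM at 7 days. Col4a1, the type IV collagen of basement membranes, fell by 4.15 ± 0.50 and Col4a2, its partner encoded beside it, by 2.94 ± 0.34 (adjusted p = 3.88e-04 and 3.35e-04). Thbs2 fell by 2.58 ± 0.52 and Vcan, the proteoglycan versican, by 0.98 ± 0.19. These 6 genes passed in each alternative fit. Plau, urokinase, had 45.3, 68.3 and 56.8 CPM at 3 days and 51.3, 51.6 and 68.5 CPM at 7 days and overlapped, and Mmp14, a membrane metalloproteinase, had a log2 fold change of -0.47 ± 0.22.

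Markers of vessel cells moved with the matrix genes. All 14 endothelial markers fell (median -3.77), as did 6 of 14 fibroblast and pericyte markers, and the 3-day sums were highest in replicate 3 for both. Matrix genes differed in this: of the 3-day libraries, the same replicate had the highest Col4a1 level (81.9 CPM) and the lowest Thbs1 level. Its Adam8 level was close to that of 3-day replicate 1. Without it, 11 endothelial and 0 fibroblast and pericyte markers were called, and 2 and 3 of the latter without 7-day replicate 1 and 7-day replicate 3. Col4a1 and Col4a2 are also made by endothelial cells and pericytes. At 14 days the endothelial sum was 493 to 509 CPM, near the 3-day mean, while the 14-day means were 17.7 CPM for Thbs1, 39.6 CPM for Adam8 and 17.3 CPM for Col4a1. The matrix sum was 2603, 2739 and 2111 CPM at 3 days and 433, 747 and 938 CPM at 7 days, with 1300 to 1399 CPM at 14 days. The part of vascular cells in the matrix falls was not tested.

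**Figure D4:**
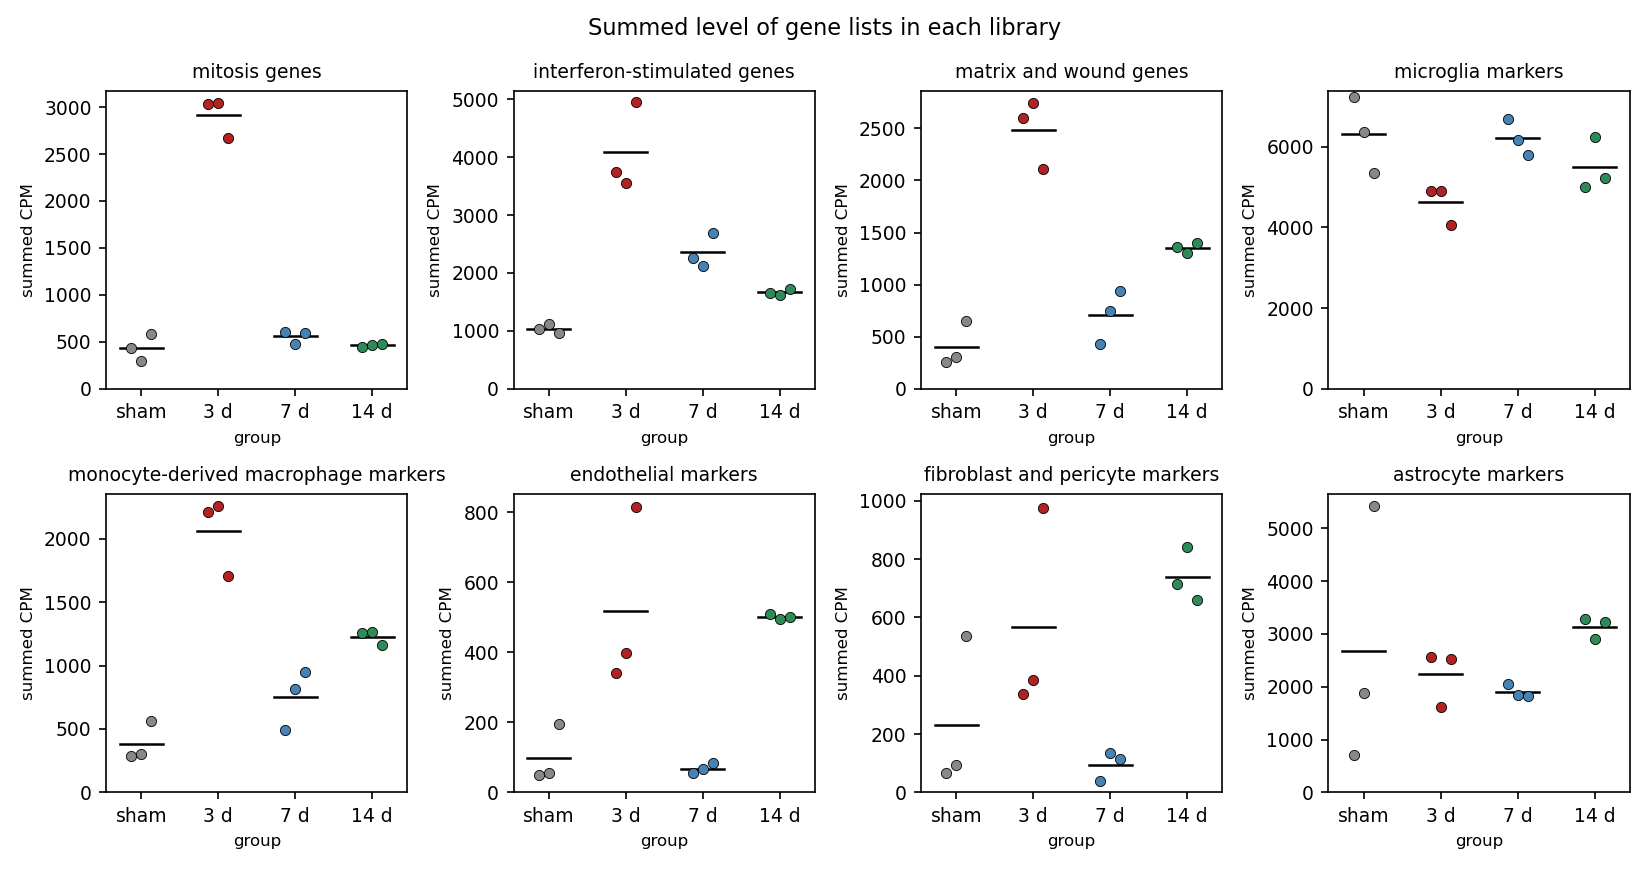
Summed level of 8 gene lists in each library, in CPM of library totals on a linear axis from 0, with the group mean as a line. The mitosis, interferon, matrix, monocyte-derived macrophage, endothelial, and fibroblast and pericyte sums are lower at 7 than at 3 days without overlap. The microglial sum is higher without overlap, and the astrocyte sums overlap although 4 of 14 astrocyte markers fell. At 14 days the endothelial and fibroblast sums are high again.

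Among genes of at least 10 CPM with no overlap, the 10 largest falls were Fgd5 (-4.74 ± 0.95), Adgrl4, Slco1a4, Tek, Col4a1, Cdh5, Adgrf5, Ptprb, Hspg2 and Cxcl12 (-3.88 ± 0.85). Cdh5 measured 33.0, 29.9 and 51.6 CPM at 3 days and 1.68, 1.94 and 3.08 CPM at 7 days. Cdh5, the cadherin of endothelial junctions, and Tek, the angiopoietin receptor, are in the endothelial marker list, as is Slco1a4, and Col4a1 is in the matrix list. Slco1a4 measured 38.0, 39.7 and 155 CPM at 3 days and 1.26, 4.58 and 6.29 CPM at 7 days. Slco1a4, a transporter of the blood-brain barrier, had its highest level in 3-day replicate 3, as did Ptprb, an endothelial phosphatase. Adgrf5, an adhesion receptor, and Cxcl12, a chemokine, reached an adjusted p of 0.0764 and 0.0685 with 1 library left out, and the other 8 passed in each alternative fit.

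Plexins and semaphorins, receptors and ligands of cell guidance, were lower where they changed. The title of the series names Plexin-B2, a receptor of class 4 semaphorins. Plxnb2 measured 459.9, 479.5 and 464 CPM at 3 days and 395, 275 and 392 CPM at 7 days. Plxnb2 lies at chr15:89155549-89180788. The 7-day libraries were all below the 3-day libraries, with a log2 fold change of -0.40 ± 0.16 (95% interval -0.75 to -0.05) that did not pass after adjustment (adjusted p = 0.111). Of 11 plexins and neuropilins, 4 fell and 0 rose (36.4% called, beside 13.4% of all tested genes, median -0.46). Plxnb1 measured 28.9, 23.8 and 70.1 CPM at 3 days and 4.61, 9.16 and 13 CPM at 7 days. Plxnb1 fell by 2.19 ± 0.45 (adjusted p = 0.00736), with replicate 3 the highest of the 3-day libraries, as for the endothelial sum. Plxnd1, a receptor of endothelial cells and macrophages, fell by 1.51 ± 0.41, Plxna2 by 1.21 ± 0.26 and Plxna1 by 1.05 ± 0.33. Without 3-day replicate 3 the count of plexins was 0 and Plxnb1 had an adjusted p of 0.0585, and the count was 2 without 3-day replicate 2, 7-day replicate 1 or 7-day replicate 3.

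Of 20 semaphorins, 7 fell and 0 rose (35% called, beside 13.4% of all tested genes, median -0.63). Sema7a measured 10.7, 18.8 and 29.2 CPM at 3 days and 5.87, 3.17 and 5.48 CPM at 7 days. Sema7a, a membrane-anchored ligand of integrins, fell by 2.03 ± 0.37 (adjusted p = 0.00464) and Sema6b by 1.68 ± 0.35, and both passed in each alternative fit. Sema6a, Sema6d, Sema3b and Sema3c fell by 2.17 ± 0.45, 1.51 ± 0.41, 2.13 ± 0.52 and 2.04 ± 0.55, all with their highest level in 3-day replicate 3, and none passed without it. The count was 2 without that library, 3 without 7-day replicate 3, 4 without 7-day replicate 1 and 4 with the Y-linked covariate. Sema4d measured 229, 264 and 251 CPM at 3 days and 254, 203 and 297 CPM at 7 days. Sema4d, a class 4 ligand, overlapped, with a log2 fold change of 0.02 ± 0.17.

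Of 26 cytoskeleton genes, 8 fell and 0 rose (30.8% called, beside 13.4% of all tested genes, median -0.26). Actn4 measured 104, 103 and 104 CPM at 3 days and 49.9, 37.2 and 60.7 CPM at 7 days. Actn4, an actin crosslinker, fell by 1.07 ± 0.23 (adjusted p = 0.00849) and passed in each alternative fit. Iqgap1, a scaffold of the cell front, fell by 0.83 ± 0.19, Cfl1, cofilin, by 0.86 ± 0.20, Tln1, talin, by 0.72 ± 0.18, Vcl, vinculin, by 1.19 ± 0.30 and Flna, filamin A, by 0.73 ± 0.21. Actb had 359.9, 360.4 and 315 CPM at 3 days and 441, 304 and 335 CPM at 7 days and overlapped, and moesin, encoded by Msn, had a log2 fold change of -0.41 ± 0.14. The count was 2 without 3-day replicate 3, 7-day replicate 1 or 7-day replicate 3, 4 without 3-day replicate 2, and 5 without 3-day replicate 1, with the Y-linked covariate or with the replicate number as a block.

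Of 24 integrin and adhesion genes, 6 fell and 2 rose (33.3% called, beside 13.4% of all tested genes, median -0.40). Itga3 measured 11.2, 9.10 and 15.2 CPM at 3 days and 0.628, 0.881 and 3.08 CPM at 7 days. Itga3, a laminin receptor chain, fell by 2.86 ± 0.55 (adjusted p = 0.0056), Itga1, a collagen receptor chain, by 3.38 ± 0.82, Itga7 by 2.90 ± 0.73, Itgb4 by 2.42 ± 0.63 and Itga5, the fibronectin receptor, by 1.15 ± 0.33. Itga9 measured 28.9, 40.8 and 34.2 CPM at 3 days and 108, 57.6 and 52.2 CPM at 7 days. Itga9, which binds osteopontin and tenascin, rose by 1.06 ± 0.24 (adjusted p = 0.0127, 0.0649 without 3-day replicate 3). Itgav (0.08 ± 0.16) and Itga6 (0.01 ± 0.16) overlapped between the times. The falls numbered 1 without 3-day replicate 3 or 7-day replicate 1 and 2 without 7-day replicate 3, and the rises 0 without 3-day replicate 1 or 3 or 7-day replicate 1 and 1 without 3-day replicate 2 or 7-day replicate 4. Itga1, Itga3, Itga7 and Itgb4 are also known from vessel and epithelial cells, and each had its highest level in 3-day replicate 3.

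Of 23 glycolysis and hypoxia genes, 4 fell and 2 rose (26.1% called, beside 13.4% of all tested genes, median -0.32). Slc2a1 measured 89.5, 92.4 and 139.6 CPM at 3 days and 41.1, 33.3 and 54.8 CPM at 7 days. Slc2a1, the glucose transporter GLUT1, which brain endothelium also makes, fell by 1.31 ± 0.34 (adjusted p = 0.0221, 0.13 without 3-day replicate 3). Pkm, pyruvate kinase, fell by 0.62 ± 0.17, Eno1, enolase, by 0.85 ± 0.23 and Pfkp, phosphofructokinase, by 1.02 ± 0.28, while Hk3, a hexokinase, rose by 0.64 ± 0.18 and Pgam1 by 0.82 ± 0.24. The falls numbered 0 without 7-day replicate 1 or 7-day replicate 3, 1 without 3-day replicate 1 or 3 and 2 without 3-day replicate 2, and the rises 0 without 3-day replicate 1, 3-day replicate 3 or 7-day replicate 3 and 1 without 3-day replicate 2 or 7-day replicate 1.

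Of 25 nuclear genes of the respiratory chain, 7 rose and 0 fell (28% called, beside 13.4% of all tested genes, median 0.51). Cox4i1 measured 10.9, 8.65 and 12 CPM at 3 days and 34.6, 26.9 and 31.7 CPM at 7 days. Cox4i1, a subunit of cytochrome oxidase, rose by 1.56 ± 0.35 (adjusted p = 0.0118) with no overlap. Ndufa9 measured 11.2, 12.7 and 13.5 CPM at 3 days and 31.6, 34.2 and 26.1 CPM at 7 days. Ndufa9, of complex I, rose by 1.29 ± 0.26 (adjusted p = 0.00736), Ndufs3 by 1.12 ± 0.29, Ndufa4 by 1.03 ± 0.27, and the ATP synthase subunits Atp5a1 and Atp5c1 by 0.72 ± 0.22 and 0.66 ± 0.21. Cox4i1 and Ndufa9 passed in each alternative fit, and the count was 2 without 3-day replicate 2 or 3 or 7-day replicate 1 or 3, and 3 without 3-day replicate 1. Atp5b had 202, 172 and 161 CPM at 3 days and 118, 153 and 173 CPM at 7 days and overlapped. Of 28 cytosolic ribosomal proteins, 1 rose and 0 fell (3.57% called, below the 13.4% of all tested genes). With 1 library left out 0 rose in each fit, against 5 by DESeq2 and 13 with the 6 libraries fitted alone. Still, 24 of the 28 had a log2 fold change above 0 and the median was 0.77. Rpl3, with 161, 148 and 135 CPM at 3 days and 139, 104 and 122 CPM at 7 days, was among those at or below 0.

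Gene length moved with the direction of change. Length here is the one by which the authors scaled their RPKM, and its median was 2846 bases in genes called higher, 5443 bases in genes called lower and 3501 bases in all tested genes. In the quintile of genes with the shortest transcripts, 8.07% were higher and 1.87% lower at 7 days, and in the quintile with the longest 4.28% were higher and 14.6% lower. The shortest quintile took 2.81% to 3.14% of counts at 3 days and 3.67% to 3.72% at 7 days, beside 3.44% to 3.60% in sham and 3.47% to 3.78% at 14 days. Of the lists that stood highest, ribosomal proteins had a median length of 1924 bases and the respiratory chain 2259 bases. The homeostatic list, whose median change was above that of the respiratory chain, had 3711 bases, as did the interferon list, which fell. The lists of mitosis and matrix genes had 4748 and 5998 bases. The part of length in these results was not tested.

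**Figure D5:**
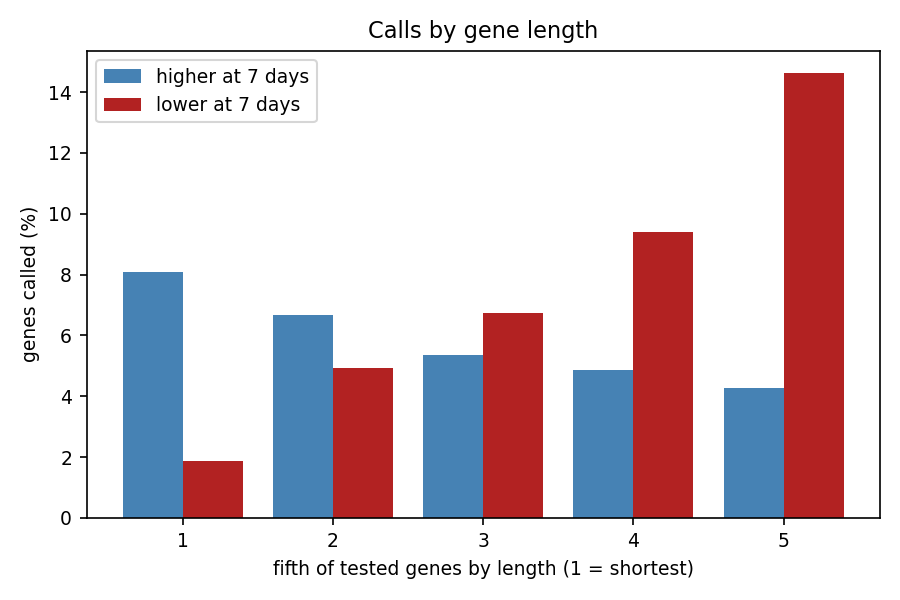
Share of tested genes called higher (blue bars) or lower (red bars) at 7 days, in percent, in quintiles of the genes ordered by length from shortest to longest. The share called higher goes from 8.07% in the shortest quintile to 4.28% in the longest, and the share called lower from 1.87% to 14.6%.

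Snhg8 and Snhg20, hosts of small nucleolar RNAs, were among the 10 largest rises. Among genes of at least 10 CPM with no overlap, the 10 largest rises were Cnbd2 (3.07 ± 0.65), Snhg8, Snhg20, Trmt61a, Bod1, Bcl2a1b, Chchd7, Ccdc107, Igip and Gpr137b (1.83 ± 0.33). Snhg8 measured 1.37, 4.40 and 4.61 CPM at 3 days and 39.6, 23.4 and 17.4 CPM at 7 days. Snhg8, a noncoding host of a small nucleolar RNA, rose by 2.88 ± 0.52 (adjusted p = 0.00444), and its sham mean of 9.02 CPM lay between the groups. Gpr137b measured 15.7, 19.7 and 20.2 CPM at 3 days and 68.3, 88.6 and 41.7 CPM at 7 days. Gpr137b, a lysosomal membrane protein, rose by 1.83 ± 0.33 (adjusted p = 0.00409), above its sham mean of 14.7 CPM. Trmt61a measured 5.01, 4.25 and 4.52 CPM at 3 days and 20.3, 22 and 14.8 CPM at 7 days. Trmt61a, a tRNA methyltransferase subunit, and Bod1, a regulator of chromosome alignment, rose by 2.05 ± 0.39 and 2.03 ± 0.38, and Chchd7, a mitochondrial protein, by 2.00 ± 0.35. The median length of these 10 genes was 1905 bases, against 6939 bases for the 10 largest falls. Cnbd2 had 19.4, 21.7 and 14.1 CPM at 3 days and 96.2, 289.5 and 75.7 CPM at 7 days, and without 7-day replicate 3, its highest library, the log2 fold change was 2.25, beside 2.99 for Snhg8. Cnbd2 and Snhg20 lost the threshold without 3-day replicate 3, with adjusted p-values of 0.0595 and 0.0584. Bcl2a1b lost it without each of the 6 libraries (up to 0.195), under the stricter filter and by limma on either RPKM scale. Bcl2a1b, a survival protein of the BCL2 family, has near-identical copies, so its counts are uncertain.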

How the data were processed

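Nuclear RNA of GFP-positive nuclei was measured in 12 libraries of 3 pooled animals each, amplified by single-primer isothermal amplification (Ovation RNA-Seq V2) and sequenced as paired 50-base reads, per the labels. The deposited values are raw counts for each Ensembl gene and, in a second file by the authors, RPKM, which are counts scaled by gene length and library total. Counting was done with featureCounts (version 1.4.6-p3) on GRCm38, also named as mm10, per the submitters' processing notes. The aligner and strand setting are not stated in the sources used, so antisense and overlapping genes are uncertain. The length of each gene was worked out from the deposited counts and RPKM themselves, as a median over the libraries. RPKM recomputed with that length differed from the deposited RPKM by at most 8.9e-15 in relative terms. Since the length came from the same RPKM, this shows only that 1 length per gene fits all libraries.

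Counts were fitted in R 4.3.3 with edgeR 4.0.16 (filterByExpr, 18451 of 49585 genes with 99.6% of counts; TMM; quasi-likelihood test; Benjamini-Hochberg threshold 0.05) over all 12 libraries with 4 group means, which share 1 estimate of the spread. The contrast was 7 days minus 3 days, and an SE is that of the log2 fold change. Alternatives used other size factors, DESeq2 1.42.0, other filters, limma 3.58.1 on log2(RPKM + 1) and log2(RPKM + 0.1), the replicate number as a block, the 6 libraries alone, a Y-linked covariate, and each library left out in turn. The fit was tested on simulated data with 200 of 18451 genes changed: it recovered 12% of 2-fold and 72% of 4-fold changes, with 3 false calls of 87.

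The comparison, the gene lists and the tests were chosen with earlier results of these data known. Named genes were the 10 largest rises and falls among called genes with no overlap and at least 10 CPM (predicted genes, pseudogenes, RIKEN clones and sex-linked genes apart), up to 6 called members of each list with the smallest adjusted p, up to 2 uncalled members with the highest level, and Plxnb2. P2ry12, Tmem119, Tyrobp, and the genes and families of the other observations were chosen after their values were seen. Some named genes are not reported here. Promoters are from RefSeq (GRCm38.p6), matched by symbol, and gene positions from GENCODE M21, matched by Ensembl ID; a match counts letters on either strand. Replicates 1 and 3 were in both groups, but nothing in the labels pairs the libraries.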

Additional observations from a re-analysis of the deposited data

How the results depend on the processing

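Of 2466 calls, 1079 higher and 1387 lower, none changed sign in any alternative fit, and the median over all genes moved by -0.04 to 0.03 on the log2 scale. Of 179 named called genes, 76 passed in each alternative, and the largest losses were without 3-day replicate 3 (99) and without 7-day replicate 1 (85); 19 uncalled ones passed in some. With each of the 6 libraries left out in turn, 564 to 2490 genes were called, 196 to 1082 higher and 368 to 1408 lower; the lone pair that then remains at a time is assumed to vary like the other groups. A replicate block, although the numbers do not pair the libraries (correlations of same-numbered deviations of 0.069 and 0.0049), called 3276 genes, 1440 higher and 1836 lower. Leaving out sham replicate 4 called 4539, 2285 higher and 2254 lower. The Y-linked covariate called 1673, 764 higher and 909 lower, and limma on log2(RPKM + 0.1) 1694, 715 higher and 979 lower. The 6 libraries alone, DESeq2 and no filter called 3548, 3429 and 3489, and median-ratio size factors, a stricter filter and limma on log2(RPKM + 1) called 2460, 2131 and 1931. The simulated test recovered 12% of 2-fold changes, so a gene that did not pass is not shown to be unchanged. That simulation changed 200 genes, fewer than the 2466 called here, so its recovery need not be that of the real comparison.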

Other observations

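Gene families outside the lists above, chosen after their values were seen, also differed in direction. Of 35 kinesin motors, 14 fell and 0 rose, against 7.52% of all tested genes lower. Kif18b measured 44.9, 64.6 and 51.7 CPM at 3 days and 9.64, 3.17 and 4.68 CPM at 7 days. Kif18b, a motor of the mitotic spindle, fell by 3.22 ± 0.42 (edgeR's quasi-likelihood test, adjusted p = 6.67e-04), and Kif2c, which corrects faulty attachments, by 2.84 ± 0.39. Of 10 laminin chains, the scaffold of basement membranes, 7 fell. Lama4 measured 15.7, 20.6 and 37.8 CPM at 3 days and 0.838, 4.23 and 1.87 CPM at 7 days. Lama4, a chain of vessel basement membrane, fell by 3.40 ± 0.65 (adjusted p = 0.0056) and was highest in 3-day replicate 3, the library with the highest endothelial sum. Of 19 ADAMTS proteases, 9 fell and 0 rose, and of 36 collagens 9 fell and 2 rose. Of 7 Schlafen genes, which interferon induces, 3 fell and 0 rose. Slfn4 measured 16.4, 81.2 and 68.4 CPM at 3 days and 3.77, 4.40 and 3.48 CPM at 7 days. Slfn4, a Schlafen gene of myeloid cells, fell by 3.84 ± 0.54 (adjusted p = 0.00123) and passed in each alternative fit, and Slfn1 by 2.04 ± 0.48.

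In other families the called genes were mostly higher, although most members did not pass, beside 5.85% of all tested genes higher. Of 80 ribosomal protein genes with a standard symbol, 14 rose and 0 fell (median log2 fold change 0.75), Rps21 by 1.97 ± 0.50, up from 2.77 to 10.9 CPM. Of 44 complex I subunits and assembly factors 9 rose and 0 fell, and of 76 mitochondrial ribosomal proteins 7 rose and 0 fell. Of 11 small nucleolar RNA hosts, 4 rose and 1, Snhg14, fell by 1.34 ± 0.28. With 1 library left out, Rps21 and Snhg14 reached adjusted p-values of 0.117 and 0.0582. By gene type, 10.9% of 595 long intergenic RNAs and 7.84% of 778 antisense RNAs were higher at 7 days, against 4.68% of 13904 protein-coding genes, while 3.70% and 1.54% against 9.07% were lower. Strand was not given, so counts of antisense genes and their partners cannot be told apart.

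Noncoding RNAs of the imprinted Dlk1-Dio3 locus were lower where called. Rian measured 223, 149.9 and 283 CPM at 3 days and 63.3, 48.1 and 104 CPM at 7 days. Rian, a small nucleolar RNA host of that locus, fell by 1.61 ± 0.33 (adjusted p = 0.00721, 0.0505 without 3-day replicate 3). Mirg fell by 1.98 ± 0.63 (adjusted p = 0.049, up to 0.226 with 1 library left out). Meg3 had 1332, 1006 and 1692 CPM at 3 days and 658, 634 and 1008 CPM at 7 days, which overlapped (log2 fold change -0.81 ± 0.42). Gm26917 measured 8674, 10806 and 8541 CPM at 3 days and 1529, 287 and 3187 CPM at 7 days. Gm26917, a predicted noncoding gene, fell by 2.49 ± 0.71 (adjusted p = 0.0318, up to 0.11 with 1 library left out), with 223 to 1487 CPM in sham and 2524 to 4421 CPM at 14 days.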
